A study of Mus musculus with 12 samples.

Results

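Wnt ligands, Frizzled receptors and 2 families of secreted Wnt inhibitors were described in the white fat of mice kept on a high-fat diet. The members were the protein-coding genes with Wnt, Fzd, Sfrp1 to Sfrp4 or Dkk1 to Dkk4 symbols. This gave 35 of the 32622 gene identifiers in the files, of which 18 were Wnt ligands, 10 Frizzled receptors, 3 secreted Frizzled-related proteins and 4 Dickkopf inhibitors. RNA-seq covered 6 mice, 3 wild type (WT) and 3 with a knockout (KO) of C2orf74, and in each of them an epididymal fat pad (epWAT) and a subcutaneous one (scWAT). The 4 groups were thus WT epWAT, KO epWAT, WT scWAT and KO scWAT, each with 3 libraries, and each mouse gave 1 library per pad. All 4 groups shared the high-fat diet, started at 8 weeks of age and given for 12 weeks. Strain, sex and knockout allele are not stated in the labels.

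Wnt proteins are secreted, lipid-modified signals that bind Frizzled receptors together with the co-receptors Lrp5 and Lrp6. In the canonical branch this keeps beta-catenin from being degraded, and beta-catenin then acts with TCF/LEF factors on target genes. Secreted Frizzled-related proteins bind Wnt proteins outside the cell, and Dickkopf proteins such as Dkk1 and Dkk4 bind the Lrp co-receptors. In fat, canonical Wnt signals are known to hold back the differentiation of preadipocytes, and Wnt10b is the ligand best known for it. Wnt5a acts mainly through branches without beta-catenin.

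The library depth recovered from the values ran from 15011093 to 18311564 reads. The mouse gene taken as the counterpart of C2orf74, 1700093K21Rik, had 7 summed reads in WT epWAT and 1 in KO epWAT, and 20 in WT scWAT and 2 in KO scWAT, so at this depth it gave a weak check of the labels. The 6 adipocyte markers, such as Adipoq and Plin1, summed to 5171 FPKM in the lowest and 13866 FPKM in the highest library. Several libraries held transcripts of other tissue. KO epWAT of mouse C7 held 219.1 FPKM of Crisp1, a secretory gene of the epididymis, and KO epWAT of C695 held 6.30 FPKM, against at most 0.201 FPKM in WT epWAT. KO scWAT of mouse C695 held 75.8 FPKM of Cd79a, a B cell gene. KO scWAT of C34 was the highest of the 12 libraries for 5 of 5 skeletal muscle markers, with a sum of 272.9 FPKM. WT libraries were not free of such transcripts, and the same muscle markers summed to 148.8 FPKM in WT scWAT of C85. Most comparisons of KO with WT are therefore also given without KO epWAT C7 or without KO scWAT C695, and a few without KO scWAT C34. In bulk tissue, fewer cells of a type and less RNA per cell cannot be told apart.

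The promoters of 5 members are shown here because the results below turn on these genes. Fzd4, Fzd1 and Fzd7 were receptors that passed a test between pads, and Wnt10b and Wnt2b were ligands with large differences between pads. Each sequence holds the 250 bases before the RefSeq gene start (GRCm38.p6), read 5′ to 3′ on the strand of the gene. Capitals mark matches, on either strand, to the TCF/LEF core CTTTGA, the GC box GGGCGG, the TATA box TATAAA, the CCAAT box CCAAT and the nuclear receptor core AGGTCA.
Fzd4 (chr7:89404116-89404365, plus strand): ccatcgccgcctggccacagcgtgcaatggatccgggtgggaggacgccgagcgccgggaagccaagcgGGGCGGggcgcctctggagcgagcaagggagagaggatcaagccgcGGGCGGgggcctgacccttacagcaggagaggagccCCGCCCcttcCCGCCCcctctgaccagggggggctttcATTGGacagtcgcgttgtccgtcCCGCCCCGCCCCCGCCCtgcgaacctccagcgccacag
Fzd1 (chr5:4758217-4758466, minus strand): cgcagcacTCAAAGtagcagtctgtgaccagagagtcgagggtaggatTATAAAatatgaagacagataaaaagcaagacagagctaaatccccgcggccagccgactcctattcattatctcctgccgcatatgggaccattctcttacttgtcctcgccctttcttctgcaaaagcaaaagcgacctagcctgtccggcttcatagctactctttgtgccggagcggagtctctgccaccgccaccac
Fzd7 (chr1:59481897-59482146, plus strand): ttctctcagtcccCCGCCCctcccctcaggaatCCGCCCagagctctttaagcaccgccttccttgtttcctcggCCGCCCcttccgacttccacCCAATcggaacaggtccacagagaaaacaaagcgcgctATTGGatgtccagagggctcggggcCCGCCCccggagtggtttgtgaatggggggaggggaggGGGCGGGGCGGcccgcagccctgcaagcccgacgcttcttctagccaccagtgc
Wnt10b (chr15:98778151-98778400, minus strand): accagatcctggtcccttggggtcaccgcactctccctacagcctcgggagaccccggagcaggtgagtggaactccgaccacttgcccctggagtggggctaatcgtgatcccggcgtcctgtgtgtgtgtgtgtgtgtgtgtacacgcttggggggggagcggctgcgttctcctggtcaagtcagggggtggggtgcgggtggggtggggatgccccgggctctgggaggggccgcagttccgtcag
Wnt2b (chr3:104961710-104961959, minus strand): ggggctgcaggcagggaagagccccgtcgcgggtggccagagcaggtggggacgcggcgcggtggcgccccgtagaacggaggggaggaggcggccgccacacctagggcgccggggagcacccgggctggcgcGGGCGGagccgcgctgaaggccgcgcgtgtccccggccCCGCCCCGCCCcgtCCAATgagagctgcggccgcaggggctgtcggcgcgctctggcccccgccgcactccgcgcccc

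The GC box was found 7 times before Fzd4, 6 times before Fzd7 and 3 times before Wnt2b, counting overlapping matches. It was present in 32.7% of the 32851 promoters of the RefSeq table. The window of Fzd1 differed from these. It held no GC box, and it held 1 TCF/LEF core and 1 TATA box, which were present in 13.8% and 12.4% of all promoters. The CCAAT box, present in 33.8% of all promoters, occurred in the windows of Fzd4, Fzd7 and Wnt2b. None of the letters searched was in the window of Wnt10b, and the nuclear receptor core, present in 14.0% of all promoters, was in none of the 5 windows. The GC content was 80.8% for Wnt2b and 51.2% for Fzd1, against a median of 52.4% over all promoters. A match is a description of these letters only. The table held a promoter for 23 of the 35 members. A RefSeq start can differ from the GENCODE M21 start of the same gene.

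Of the 35 members, 18 had at least 1 FPKM in at least 3 of the 12 libraries. FPKM scales reads by exon length and by library depth, so it allows levels to be compared between genes. These 18 were the ligands Wnt2b, Wnt5a, Wnt5b, Wnt9a, Wnt10b and Wnt11, the receptors Fzd1, Fzd2 and Fzd4 to Fzd8, the inhibitors Sfrp1, Sfrp2 and Sfrp4, and Dkk2 and Dkk3. Another 15 members stayed below 1 FPKM in every library. They ranged from 1 read over all libraries for Wnt3a and Wnt8a to 1460 reads for Fzd3, which was at 0.435 to 0.707 FPKM. The low ligands Wnt1, Wnt3, Wnt4, Wnt7a, Wnt7b, Wnt9b, Wnt10a and Wnt16 had 2 to 93 reads over all libraries, and Wnt6 and Wnt8b had 181 and 304. The low receptors Fzd9 and Fzd10 had 36 and 39 reads. Of the 33 members above 0, 8 had their highest value in WT epWAT C85 and 6 in KO epWAT C7, and those of C7 were Wnt3, Wnt3a, Wnt4, Wnt7b, Fzd6 and Dkk3. Dkk1 and Dkk4, which bind the Lrp co-receptors, were listed at 0 in all 12 libraries.

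Fzd4, the receptor for Norrin as well as for Wnt proteins, had by far the highest level of the members. It ran from 73.0 to 145.0 FPKM over the 12 libraries. The 10 receptors summed to between 106.8 and 184.1 FPKM, and Fzd4 made up 68.3% to 84.0% of that sum. The ligands were much lower, with a summed level of 10.7 to 19.2 FPKM. Wnt5a was the highest of the 18 ligands in every library, at 31.2% to 47.3% of the ligand sum. The secreted Frizzled-related proteins summed to 9.47 to 30.1 FPKM and the Dickkopf inhibitors to 0.92 to 3.94 FPKM.

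**Figure D1:**
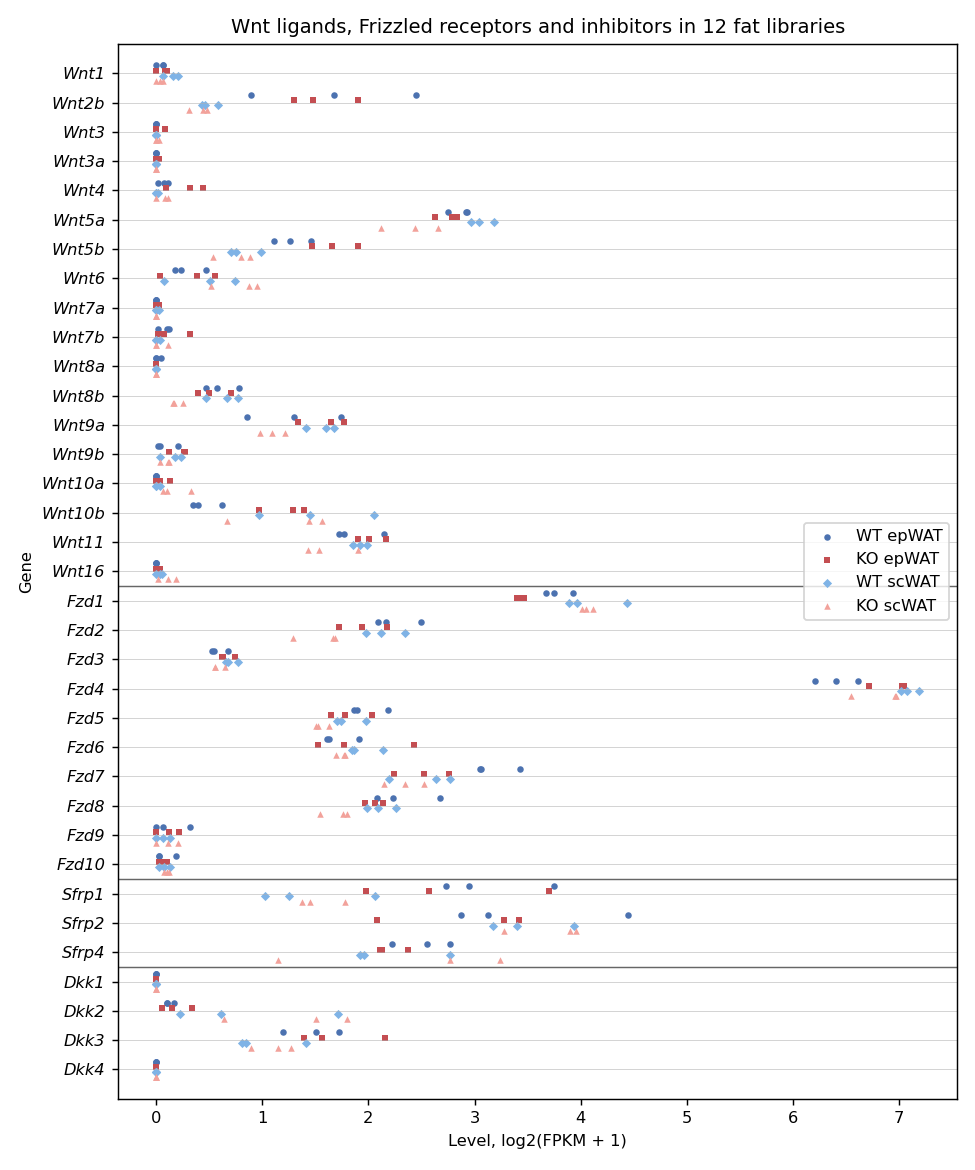
Level of each of the 35 members as log2(FPKM + 1), with 1 point per library and the 4 groups by colour and shape. Fzd4 stands at the right in all 12 libraries, and 15 members stay below 1 FPKM beside Dkk1 and Dkk4 at 0.

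The first comparison was between the pads of WT mice. Fzd4 was higher in scWAT, and the receptor Fzd7 and the Wnt-binding inhibitor Sfrp1 were lower there. These 3 of 15 tested members passed the test (limma on log2(FPKM + 1), Benjamini-Hochberg adjusted p under 0.05), which 22.4% of all tested genes did, 7.49% higher and 14.9% lower in scWAT. An unadjusted p under 0.05 was reached by 4 of the 15, against 36.6% of all genes. The groups did not overlap for 5 members, against 43.2% of all genes. The last 4 and 5 members include Wnt5b, which reached 1 FPKM only in WT epWAT and so entered the test through that pad.

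Fzd4 held 73.0, 96.7 and 83.9 FPKM in WT epWAT of mice C75, C85 and C99, and 134.2, 145.0 and 129.0 FPKM in WT scWAT of the same mice. All 3 scWAT libraries were above all 3 epWAT libraries. The means were 84.5 ± 11.9 and 136 ± 8.20 FPKM (SD, n = 3), a log2 difference of 0.69 ± 0.11 (SE, adjusted p = 0.00935, limma). This call held under every alternative tried, with adjusted p of at most 0.0365 without any single library. The gene lies on chromosome 7 at 89404355 to 89413134 (GRCm38, GENCODE M21), and its promoter is the GC-rich window shown first.

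Fzd7 was at 9.77, 7.28 and 7.32 FPKM in WT epWAT and at 5.82, 5.23 and 3.58 FPKM in WT scWAT, in the same order of mice. Every scWAT library was below every epWAT library, and the log2 difference was -0.64 ± 0.18 (SE, n = 3, adjusted p = 0.0441, limma). That call was near the threshold and was lost under upper-quartile scaling (adjusted p = 0.054), under quantile normalization (0.0567), with no filter (0.102) and without WT epWAT C75 (0.117), C85 (0.0672) or C99 (0.0797) or WT scWAT C85 (0.0879) or C99 (0.093). Sfrp1 was at 12.4, 5.62 and 6.73 FPKM in WT epWAT and at 3.16, 1.39 and 1.04 FPKM in WT scWAT. Its groups did not overlap either, and it was lower in scWAT by the largest margin of the tested members, at a log2 difference of -1.69 ± 0.35 (SE, n = 3, adjusted p = 0.0187, limma). It missed the threshold with no filter (adjusted p = 0.0506) and without WT scWAT C85 (0.0633) or C99 (0.0655). Sfrp2 and Sfrp4, of the same family, had log2 differences of 0.02 and -0.30 and overlapping groups.

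Markers of other cell types also separated the WT pads, and 8 of 11 lists had summed levels that did not overlap. The adipocyte markers summed to 5171 to 6876 FPKM in WT epWAT and to 9251 to 10577 FPKM in WT scWAT. The macrophage markers summed to 1534.4 to 2203.7 FPKM in WT epWAT and to 535.2 to 636.5 FPKM in WT scWAT. The sums for pericytes, lymphocytes, skeletal muscle and Schwann cells were also higher in WT scWAT, and those for mesothelium and epithelium lower. Some of these sums rested on few genes. Of the 6 lymphocyte markers, 5 stayed below 1 FPKM in all of WT scWAT and 4 in all of WT epWAT. Of the 5 skeletal muscle markers, 4 stayed below 1 FPKM in all of WT epWAT. The part of the marker lists in the differences of Fzd4, Fzd7 and Sfrp1 was not tested.

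Among the ligands, none passed the test above in WT mice. Wnt10b had too few libraries at 1 FPKM to be tested there, but its values differed widely between pads. It was at 0.314, 0.268 and 0.540 FPKM in WT epWAT and at 3.15, 0.959 and 1.73 FPKM in WT scWAT, with every scWAT library above every epWAT library. With no filter on low values its log2 difference was 1.04 ± 0.28 (SE, n = 3, adjusted p = 0.0894, limma). Wnt2b went the other way by a wider margin, at 0.860, 4.46 and 2.20 FPKM in WT epWAT and 0.4998, 0.351 and 0.375 FPKM in WT scWAT, with a log2 difference of -1.18 with no filter that did not pass either (adjusted p = 0.139, limma). Wnt5b was at 0.977, 0.679 and 0.635 FPKM in WT scWAT, all below its WT epWAT values of 1.40, 1.16 and 1.75 FPKM, with a log2 difference of -0.47 ± 0.14 (adjusted p = 0.0544, limma). Over the alternatives other than leaving out a library, the adjusted p of Wnt5b ran from 0.04, which passes, to 0.119 (limma). Its gene overlaps Fbxl14 on the opposite strand by 2963 bases, and Fbxl14 was at 7.26 to 12.5 FPKM. The strand setting was not given, so reads in that overlap cannot be told apart.

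In KO mice the comparison of pads looked different for Fzd4. It was at 104.0, 131.3 and 129.5 FPKM in KO epWAT of mice C7, C34 and C695, and at 124.1, 92.4 and 123.9 FPKM in KO scWAT. The groups overlapped, and the log2 difference was -0.10 ± 0.16 (SE, n = 3, adjusted p = 0.798, limma), and -0.28 without both KO epWAT C7 and KO scWAT C695 (adjusted p = 0.552). Whether the pads differ by genotype is tested by the interaction, given below.

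A different receptor, Fzd1, passed between the pads of KO mice. It was at 9.57, 9.64 and 10.03 FPKM in KO epWAT and at 16.3, 15.6 and 15.1 FPKM in KO scWAT, with a narrow spread in each group and no overlap. The log2 difference was 0.63 ± 0.075 (SE, n = 3, adjusted p = 0.0265, limma). Fzd1 was the only call among 17 tested members, where 0.713% of all genes passed, 0.285% higher and 0.428% lower in scWAT. With the mouse as a block the adjusted p was 0.129, and it ranged from 0.0613 to 0.177 when any 1 library was left out, so the call did not survive either. Upper-quartile scaling (0.158), quantile normalization (0.0576) and the fit without both KO epWAT C7 and KO scWAT C695 (0.149) also ended it. In WT mice Fzd1 was at 12.4, 14.2 and 11.8 FPKM in epWAT and 14.6, 20.6 and 13.9 FPKM in scWAT, with a log2 difference of 0.32 ± 0.15 (adjusted p = 0.192, limma) and of adjusted p = 0.0383 with the mouse as a block.

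The groups of KO mice did not overlap for 10 of 17 tested members, 1 higher and 9 lower in scWAT, against 22.4% of all genes. An unadjusted p under 0.05 was reached by 8 of the 17, against 14.6% of all genes. Both counts include Wnt2b and Wnt5b, which reached 1 FPKM only in KO epWAT. These 2 genes entered the test through the pad where they were higher. Wnt2b was at 1.78, 2.74 and 1.46 FPKM in KO epWAT and at 0.240, 0.391 and 0.354 FPKM in KO scWAT (adjusted p = 0.0649, limma). Every scWAT library was below every epWAT library, as in WT mice. Wnt5b was at 2.16, 1.76 and 2.74 FPKM in KO epWAT and at 0.739, 0.841 and 0.453 FPKM in KO scWAT (adjusted p = 0.0803, limma). Wnt2b passed under upper-quartile scaling (adjusted p = 0.0448), quantile normalization (0.0477) and limma-voom (0.0466). Wnt5b passed with a spread shared over the 12 libraries (adjusted p = 0.00924). Neither passed with the mouse as a block (0.132 and 0.206). Of the 11 marker lists, the mesothelial one was lower and the Schwann cell one higher in every scWAT library of KO mice, and their part in these values was not tested. Fzd7 was at 4.76, 4.10 and 3.44 FPKM in KO scWAT, which overlapped its KO epWAT values.

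Taking each mouse by itself, scWAT minus epWAT had the same sign in all 6 mice for 8 of the 18 members, against 14.0% of all genes tested over the 12 libraries. Wnt2b, Wnt5b, Fzd5, Fzd7, Sfrp1 and Dkk3 were lower in scWAT in each mouse, and Fzd1 and Dkk2 were higher. Wnt2b and Wnt5b reached 1 FPKM only in epWAT and Dkk2 only in scWAT. Each of them thus passed the filter through the pad where it was higher, which limits what the count can show. For Fzd1 the 6 differences ran from 0.22 to 0.71 on the log2 scale, and for Wnt2b from -2.01 to -0.31. Markers of the mesothelium, the lining of the visceral pad, were also lower in scWAT, which is opposite to Fzd1 and Dkk2. The 6 markers summed to 17.2 to 96.7 FPKM over the epWAT libraries and to 0.621 to 2.35 FPKM over the scWAT libraries, and 2 of them were at 0 in all of WT scWAT. Of the 12 libraries, WT epWAT C85 had the highest level of Wnt2b and Fzd5 and of 5 of these 6 markers. Sfrp1 and Fzd7 were highest in WT epWAT C75, which had the lowest mesothelial sum in epWAT, 17.2 FPKM. Wnt5b was highest in KO epWAT C695 and Dkk3 in KO epWAT C7. The part of these markers in the result was not tested.

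**Figure D2:**
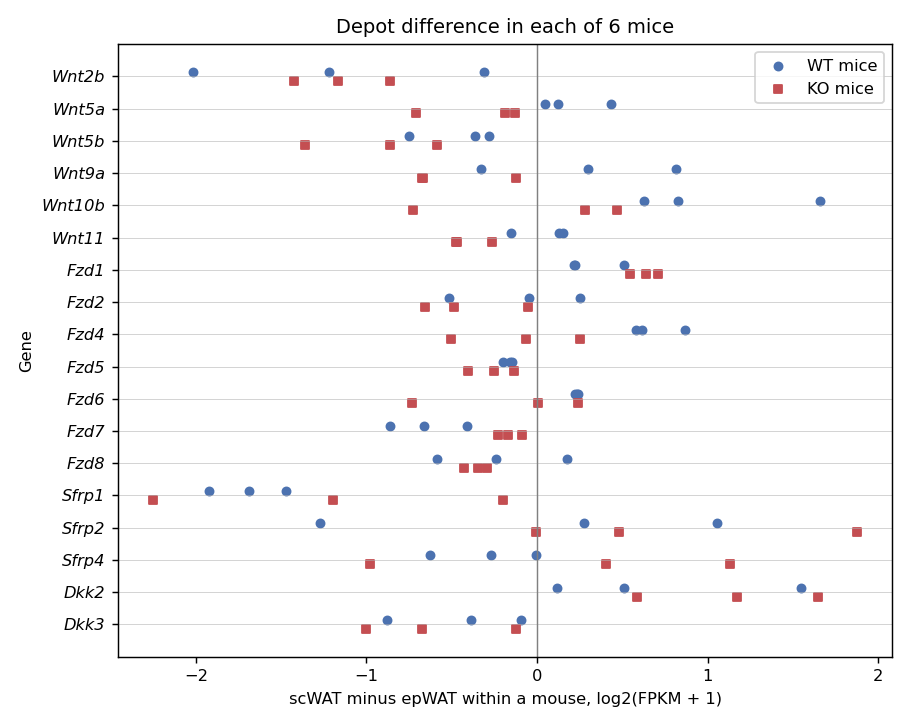
Difference between the pads of each mouse, scWAT minus epWAT in log2(FPKM + 1), for the 18 members with at least 1 FPKM in at least 3 libraries, 1 point per mouse. Wnt2b, Wnt5b, Sfrp1 and Fzd7 lie left of 0 in all 6 mice and Fzd1 right of 0, while the 3 KO mice lie below the 3 WT mice for Fzd4.

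KO and WT were then compared within epWAT. No member passed (0 of 16 by limma), and neither did any of 12722 genes (0.0%). The limma-voom test on recovered reads also called none. An unadjusted p under 0.05 was reached by 4 of 16 members, against 29.8% of all genes, so the members did not stand out from the rest. The same 4, Fzd4 and Wnt5b with higher and Fzd1 and Fzd7 with lower values in KO, were those whose groups did not overlap, against 38.8% of all genes.

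Fzd4 in KO epWAT had a mean of 122 ± 15.3 FPKM against 84.5 ± 11.9 FPKM in WT epWAT (SD, n = 3). All KO libraries lay above all WT libraries. The log2 difference was 0.52 ± 0.14 (adjusted p = 0.0788, limma), and without KO epWAT C7 it was 0.63 (adjusted p = 0.038). Fzd7 in KO epWAT was at 5.76, 4.73 and 3.72 FPKM, below each of the WT values given above, with a log2 difference of -0.67 ± 0.17 (adjusted p = 0.0727, limma) and of -0.80 without C7 (adjusted p = 0.0347). Fzd1 had a log2 difference of -0.36 ± 0.086 (adjusted p = 0.0709, limma), and of -0.34 without C7 (adjusted p = 0.0819). Leaving out C7 raised the number of genes called in epWAT from 0 to 1781, with Fzd4 and Fzd7 as the 2 members among them. A spread shared over the 12 libraries raised it to 1820 of the 12722 genes. Of the 16 members, 2 were among them, Fzd4 (adjusted p = 0.0375) and Fzd7 (adjusted p = 0.0363). These calls thus came in fits that also called many other genes. Adding the mouse as a random effect to that shared spread gave 1856 genes and the same 2 members.

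Wnt10b was below the filter in epWAT, but its groups stood far apart. KO epWAT was at 0.958, 1.44 and 1.63 FPKM and WT epWAT at 0.314, 0.268 and 0.540 FPKM. The means rested on 221 summed reads in KO and 68 in WT and stood in a ratio of 3.58. With no filter the log2 difference was 0.76 ± 0.16 (SE, n = 3, adjusted p = 0.144, limma). Wnt5b was at 2.16, 1.76 and 2.74 FPKM in KO against 1.40, 1.16 and 1.75 FPKM in WT, with a log2 difference of 0.40 ± 0.15 (adjusted p = 0.149, limma), and of 0.41 without C7 (adjusted p = 0.187). Its KO values were above each WT value by a small margin. The other ligands tested in epWAT, Wnt2b, Wnt5a, Wnt9a and Wnt11, had overlapping groups. Wnt5a was at 5.18, 6.11 and 5.88 FPKM in KO and at 5.74, 6.58 and 6.59 FPKM in WT. Wnt9a was at 1.52, 2.14 and 2.40 FPKM in KO and at 0.814, 2.34 and 1.46 FPKM in WT. Wnt11 was at 2.75, 3.01 and 3.49 FPKM in KO and at 2.41, 2.31 and 3.41 FPKM in WT. None of these 3 came near the threshold, with adjusted p of 0.415, 0.461 and 0.523 (limma), and of 0.699, 0.329 and 0.414 without C7.

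Of the remaining receptors, Fzd2 was at 3.51, 2.30 and 2.84 FPKM in KO epWAT and at 3.25, 4.63 and 3.48 FPKM in WT epWAT. Fzd5 was at 2.43, 3.09 and 2.13 FPKM in KO and at 2.70, 3.54 and 2.64 FPKM in WT. Fzd8 was at 3.41, 2.92 and 3.17 FPKM in KO and at 3.24, 5.39 and 3.68 FPKM in WT. For all 3 the highest library was WT epWAT C85, and the groups overlapped. Their log2 differences were -0.30, -0.16 and -0.27, and -0.42, -0.14 and -0.31 without C7 (adjusted p = 0.134, 0.607 and 0.304, limma).

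The secreted inhibitors varied more within a group than between groups in epWAT. Sfrp1 was at 12.0, 2.94 and 4.95 FPKM in KO and at 12.4, 5.62 and 6.73 FPKM in WT. Sfrp2 was at 9.71, 3.22 and 8.73 FPKM in KO and at 6.34, 20.8 and 7.73 FPKM in WT. Both had a library far above the others of its group, and neither difference passed (adjusted p = 0.609 and 0.5, limma, and 0.146 and 0.372 without C7). Sfrp4 was at 4.16, 3.31 and 3.38 FPKM in KO and at 5.83, 3.68 and 4.86 FPKM in WT. Dkk2 stayed between 0.036 and 0.261 FPKM in the 6 epWAT libraries, highest in KO epWAT C7. Dkk3, a divergent Dickkopf family member, was at 3.45, 1.96 and 1.63 FPKM in KO and at 1.83, 2.30 and 1.29 FPKM in WT, with overlapping groups. The receptor Fzd6 was at 4.37, 2.42 and 1.89 FPKM in KO and at 2.05, 2.77 and 2.09 FPKM in WT. For both genes the highest of the 12 libraries was KO epWAT C7, which held the epididymal transcripts. Without C7 the log2 difference of Dkk3 was 0.01 and that of Fzd6 was -0.07, against 0.23 and 0.19 with it.

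The summed markers of 4 tissues and cell types moved with genotype in epWAT. The 6 adipocyte markers summed to 8563 to 12386 FPKM in KO epWAT and to 5171 to 6876 FPKM in WT epWAT. The 6 macrophage markers summed to 394.3 to 1109.5 FPKM in KO and to 1534.4 to 2203.7 FPKM in WT, and no marker of either list was at 0. The lymphocyte markers summed to 463.3 to 676.0 FPKM in KO and to 261.8 to 348.9 FPKM in WT, and the skeletal muscle markers to 35.9 to 59.1 FPKM in KO and to 7.82 to 26.9 FPKM in WT. Of the 6 lymphocyte markers, 3 stayed below 1 FPKM in all of KO epWAT and 4 in all of WT epWAT. By its mean Cd3e was lower in KO (0.250 against 0.336 FPKM) and Cd79a higher (2.28 against 0.615 FPKM). Of the 5 skeletal muscle markers, 4 stayed below 1 FPKM in all of WT epWAT, and Ckm had a median of 0 in KO and 0.116 FPKM in WT. The sums of these 4 of 11 lists did not overlap between genotypes. The part of the 4 lists in the differences of Fzd4, Fzd7 and Wnt10b was not tested. The median log2 difference of all tested genes was also shifted, at -0.10, and became 0.04 under upper-quartile scaling. Fzd4, Fzd7, Fzd1 and Wnt5b kept their signs under that scaling, at 0.69, -0.53, -0.20 and 0.51, and Wnt5a changed from -0.12 to 0.03.

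**Figure D3:**
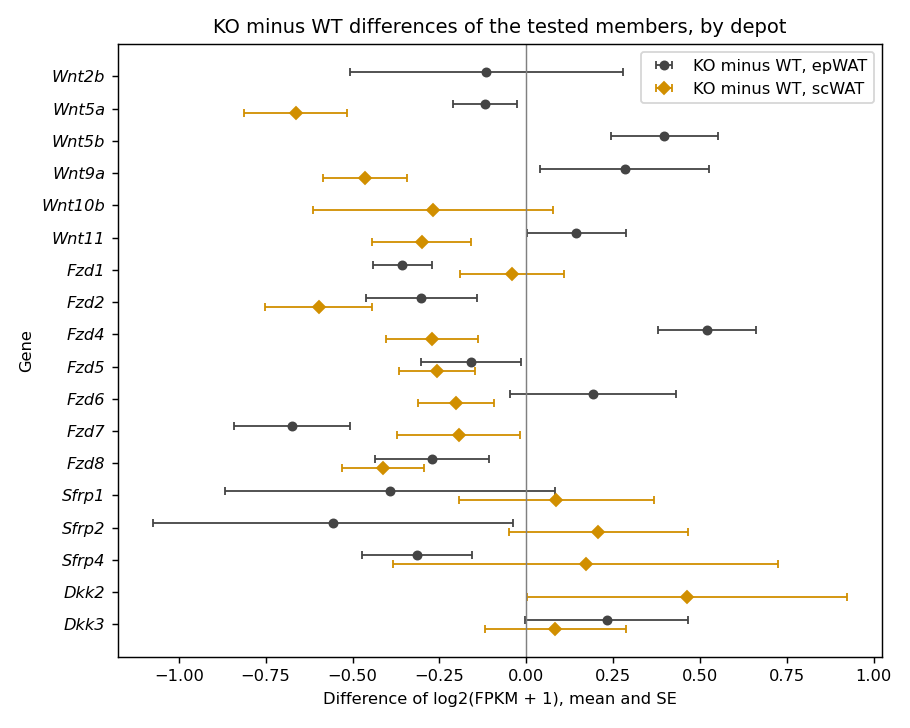
KO minus WT difference of log2(FPKM + 1) with its SE for the members tested in epWAT (circles, 16 members) and in scWAT (diamonds, 16 members). Fzd4 lies at 0.52 in epWAT and at -0.27 in scWAT, and in scWAT the 7 receptors and 4 ligands all lie left of 0 (Wnt10b is at 0.01 without KO scWAT C695).

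In scWAT, KO values of Wnt5a, Wnt9a, Fzd2 and Fzd8 were below the WT values, but again no member passed (0 of 16 by limma, against 0.317% of all genes, 0.0476% higher and 0.27% lower in KO, and 0 by limma-voom). An unadjusted p under 0.05 was reached by these 4 of 16 members, against 17.0% of all genes. The groups did not overlap for 7 of 16 members, all lower in KO, against 24.5% of all genes. These 7 were Wnt5a, Wnt9a, Fzd2, Fzd4, Fzd5, Fzd6 and Fzd8. Of the 11 marker lists, 2 did not overlap between genotypes in scWAT. The adipocyte markers summed to 11749 to 13866 FPKM in KO and to 9251 to 10577 FPKM in WT. Adipoq did not follow that sum. It was at 1718 to 1995 FPKM in KO (mean 1816) and at 1963 to 2098 FPKM in WT (mean 2009). The endothelial markers summed to 98.1 to 126 FPKM in KO and to 130.1 to 135.6 FPKM in WT. No marker of either list was at 0, and their part in these differences was not tested.

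Wnt5a was at 4.43, 3.34 and 5.28 FPKM in KO scWAT of mice C7, C34 and C695 and at 8.09, 6.84 and 7.25 FPKM in WT scWAT of mice C75, C85 and C99. The highest KO library stayed below the lowest WT library. The log2 difference was -0.66 ± 0.15 (SE, n = 3, adjusted p = 0.119, limma), and without KO scWAT C695 it was -0.79 (adjusted p = 0.0552). With a spread shared over the 12 libraries it was the only member to pass (adjusted p = 0.0292), and likewise with the mouse added to that fit as a random effect (0.0323). Wnt9a, another ligand, was at 1.32, 0.970 and 1.13 FPKM in KO and at 2.19, 1.66 and 2.03 FPKM in WT, with a log2 difference of -0.46 ± 0.12 (adjusted p = 0.146, limma, and 0.139 without C695). Wnt11 was at 1.69, 1.89 and 2.74 FPKM in KO and at 2.79, 2.61 and 2.97 FPKM in WT, where the KO value of C695 reached into the WT range (adjusted p = 0.353, limma, and 0.089 without C695). Wnt10b was at 1.71, 1.96 and 0.589 FPKM in KO and at 3.15, 0.959 and 1.73 FPKM in WT, with overlapping groups. Its log2 difference was -0.27 ± 0.35 (adjusted p = 0.745, limma), and 0.01 without KO scWAT C695 or without WT scWAT C75. The sum over the 18 ligands was 10.7 to 12.2 FPKM in KO scWAT and 14.5 to 19.2 FPKM in WT scWAT.

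Among the receptors, Fzd2 was at 2.22, 2.18 and 1.44 FPKM in KO scWAT and at 4.06, 2.94 and 3.34 FPKM in WT scWAT. Its log2 difference was -0.60 ± 0.15 (SE, n = 3, adjusted p = 0.146, limma), and -0.47 without C695 (adjusted p = 0.127). Fzd8 was at 2.47, 1.91 and 2.39 FPKM in KO and at 3.78, 3.26 and 2.96 FPKM in WT, with a log2 difference of -0.41 ± 0.12 (adjusted p = 0.171, limma), and of -0.44 without C695 (adjusted p = 0.138). Neither gene overlapped between genotypes. Fzd4 did not overlap either, with all KO libraries at or under 124.1 FPKM and all WT libraries at or over 129.0 FPKM, a log2 difference of -0.27 ± 0.13 (adjusted p = 0.361, limma). That of Fzd4 was -0.34 without C695 (adjusted p = 0.23) and -0.13 without KO scWAT C34 (adjusted p = 0.478), its lowest library. All 7 tested receptors had a log2 difference below 0, from -0.60 to -0.04, and a median of -0.26, against 0.01 for all genes. Fzd1 and Fzd7 were at the small end, at -0.04 and -0.19, and their groups overlapped. Without WT scWAT C85 the value of Fzd1 was 0.13. Fzd5 was at 1.87, 2.09 and 1.85 FPKM in KO and at 2.35, 2.95 and 2.26 FPKM in WT. Fzd6 was at 2.23, 2.43 and 2.41 FPKM in KO and at 2.58, 3.39 and 2.65 FPKM in WT. Their KO and WT libraries were separated by small gaps, with adjusted p of 0.308 and 0.409 (limma), and of 0.328 and 0.373 without C695.

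The 5 tested members of the inhibitor families had log2 differences of 0.08 to 0.46 in scWAT, with wide spreads. Those of Sfrp4, Sfrp1 and Dkk3 went below 0 on leaving out single libraries, to -0.25 without KO scWAT C34 for Sfrp4, -0.12 without WT scWAT C99 for Sfrp1 and -0.02 without WT scWAT C99 for Dkk3. Dkk2 was at 1.84, 2.47 and 0.556 FPKM in KO and at 2.28, 0.531 and 0.167 FPKM in WT. Sfrp4 was at 5.83, 8.42 and 1.22 FPKM in KO and at 5.79, 2.87 and 2.80 FPKM in WT. KO scWAT C695 had the lowest value of its group for both, and without it the log2 difference of Dkk2 was 0.80 (adjusted p = 0.352, limma). The log2 difference of Sfrp4 was 0.17 ± 0.55 (adjusted p = 0.907, limma), and 0.79 without C695 (adjusted p = 0.203). Sfrp2 was at 14.0, 14.5 and 8.67 FPKM in KO and at 14.3, 8.04 and 9.55 FPKM in WT, with a log2 difference of 0.43 without C695 (adjusted p = 0.33, limma). Dkk3 was at 1.22, 0.857 and 1.41 FPKM in KO and at 1.65, 0.797 and 0.753 FPKM in WT. Sfrp1 was at 1.73, 2.43 and 1.60 FPKM in KO, within the WT range given above. All of these groups overlapped. The 9 markers of adipose progenitors and stroma also spread widely in KO scWAT. They summed to 408.5 FPKM in the lowest and 1524.3 FPKM in the highest of its libraries, and to 595.9 to 755.6 FPKM in WT scWAT, and none was at 0. Their part in these values was not tested.

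Some low members also stood apart in scWAT. Wnt8b, below 1 FPKM in every library, was at 0.123, 0.191 and 0.119 FPKM in KO scWAT and at 0.585, 0.712 and 0.383 FPKM in WT scWAT. The groups rested on 25.8 and 102 summed reads and did not overlap. With no filter the log2 difference was -0.44 (adjusted p = 0.223, limma). Fzd3 was lower in KO too, at 0.469, 0.472 and 0.568 FPKM against 0.603, 0.580 and 0.707 FPKM in WT. Wnt10a was higher in KO, at 0.0722, 0.0476 and 0.255 FPKM against 0, 0.0221 and 0 FPKM in WT. For comparison, 24.5% of the genes tested in scWAT had groups that did not overlap.

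The interaction, the KO difference in scWAT minus that in epWAT, was tested over all 12 libraries. No member passed (0 of 18 by limma, against 1.03% of all genes, 0.586% above and 0.445% below 0, and 0 by limma-voom). An unadjusted p under 0.05 was reached by Fzd4, Wnt5a, Wnt9a and Wnt10b, which is 4 of 18, against 24.4% of all genes. The interaction of Fzd4 was -0.79 ± 0.20 on the log2 scale (adjusted p = 0.0793, limma, n = 3 in each group). Without both KO epWAT C7 and KO scWAT C695 it was -0.97 (adjusted p = 0.0249), and that of Wnt5a was -0.73 (adjusted p = 0.0279) against -0.54 with them (adjusted p = 0.114). That fit called 1477 genes in all, against 139 with all 12 libraries, so the share of 1.03% does not apply to these 2 calls. With the mouse as a block that of Fzd4 had an adjusted p of 0.091. Wnt10b had the largest value, -1.03 ± 0.41 (adjusted p = 0.162). Fzd4 was the only member whose genotypes did not overlap in either pad and pointed in opposite directions, a pattern found in 3.34% of genes.

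The other genes of the pathway were taken from 7 lists with 53 genes in all, holding co-receptors, further inhibitors, the R-spondin axis, Wnt secretion, the cytosolic relay, nuclear factors and targets. Between the pads of WT mice, 3 of 33 tested genes were higher in scWAT and 3 lower by limma, against 22.4% of all genes in both directions together. The 3 higher were Apcdd1, Trabd2b and Tcf7l2, and the 3 lower were Rspo1, Ror1 and Ptk7. In WT mice the 3 lower genes reached 1 FPKM only in epWAT, so they entered the test through that pad. Between the pads of KO mice 1 of 31 passed, which was Rspo1, against 0.713% of all genes. The interaction was called for 1 of 34, which was Apcdd1, against 1.03% of all genes. Between genotypes 0 of 32 passed in epWAT and 0 of 30 in scWAT by limma and by limma-voom, with 8 and 6 at an unadjusted p under 0.05, against 29.8% and 17.0% of all genes.

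Apcdd1, a membrane inhibitor that binds Wnt proteins and Lrp5, was lowest in WT epWAT, as Fzd4 was by its mean. It was at 34.8, 49.3 and 48.4 FPKM in WT epWAT, 73.1, 95.0 and 98.0 FPKM in KO epWAT, 81.0, 80.8 and 96.1 FPKM in WT scWAT, and 85.3, 71.96 and 82.3 FPKM in KO scWAT. The 3 WT epWAT libraries were the lowest of the 12. Between WT pads the log2 difference was 0.96 ± 0.15 (adjusted p = 0.00853, limma), and the interaction was -1.10 ± 0.22 (adjusted p = 0.0455, limma). The interaction call was lost with the mouse as a block (adjusted p = 0.0648), under limma-voom (0.0506), with no filter (0.0973) and without any single library other than KO epWAT C7 (0.0529 to 0.121). Without both KO epWAT C7 and KO scWAT C695 the interaction of Apcdd1 was -1.26 (adjusted p = 0.0165). KO minus WT in epWAT was 1.00 ± 0.18 (adjusted p = 0.066, limma), and 1.13 without C7 (adjusted p = 0.0247).

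Trabd2b, a membrane protease that inactivates Wnt proteins, was at 6.17, 6.05 and 8.29 FPKM in WT epWAT and at 13.5, 17.5 and 18.4 FPKM in KO epWAT. In scWAT it was at 18.8, 10.8 and 18.8 FPKM in WT and at 15.2, 16.0 and 19.3 FPKM in KO. Again the WT epWAT libraries were the 3 lowest. It passed between WT pads (log2 difference 1.10 ± 0.22, adjusted p = 0.018, limma), a call that missed the threshold without WT epWAT C75 (0.0566) or without WT scWAT C75 (0.0505) or C99 (0.0655). KO minus WT in epWAT was 1.16 ± 0.16 (adjusted p = 0.0553, limma), and 1.29 without KO epWAT C7 (adjusted p = 0.0247). Its interaction was -1.07 ± 0.29 (adjusted p = 0.0868, limma), and -1.29 without both KO epWAT C7 and KO scWAT C695 (adjusted p = 0.0359).

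Rspo1, a secreted enhancer of Wnt signals, fell in scWAT in both genotypes. It was at 3.12, 10.2 and 6.70 FPKM in WT epWAT and 9.79, 9.13 and 8.39 FPKM in KO epWAT, and at no more than 1.04 FPKM in any scWAT library. The log2 differences were -2.33 ± 0.35 in WT (adjusted p = 0.00761, limma) and -2.39 ± 0.11 in KO (adjusted p = 0.00172, limma). Both held with the mouse as a block, and the KO call held without any single library. The WT call held without any scWAT library, and without an epWAT library too few values reached 1 FPKM for the test. The mesothelial markers given above moved in the same direction. Ror1, a receptor for Wnt5a, was at 1.77, 1.88 and 1.56 FPKM in WT epWAT and 0.825, 0.635 and 0.848 FPKM in WT scWAT (adjusted p = 0.00996, limma). Ptk7, a co-receptor of the planar polarity branch, was at 1.45, 1.44 and 1.48 FPKM in WT epWAT and 0.740, 0.706 and 0.674 FPKM in WT scWAT (adjusted p = 0.0108, limma), a call lost with a spread shared over the 12 libraries (0.0838). Ror1 and Ptk7 entered the test only through WT epWAT, the pad where they were higher. Like Rspo1 in WT, they could not be tested without an epWAT library. The nuclear factor Tcf7l2 rose from 1.98, 2.60 and 2.16 FPKM to 3.003, 3.41 and 3.05 FPKM (adjusted p = 0.0426, limma), a call lost with no filter (0.11) and on leaving out any of 5 of the 6 libraries (0.0797 to 0.129).

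Among target genes, Axin2, a feedback inhibitor and general target of beta-catenin, was at 1.60, 1.16 and 2.90 FPKM in KO scWAT and at 3.67, 4.34 and 3.91 FPKM in WT scWAT. The groups did not overlap and the log2 difference was -0.83 ± 0.22 (SE, n = 3, adjusted p = 0.15, limma), and without KO scWAT C695 it was -1.07 (adjusted p = 0.0408). Nkd1, another feedback inhibitor, Myc, Ccn5 and Ccnd1 were chosen after their values were seen. Nkd1 was at 5.75, 4.05 and 7.46 FPKM in KO scWAT and at 16.7, 14.5 and 12.5 FPKM in WT scWAT, with a log2 difference of -1.23 ± 0.20 (adjusted p = 0.0763, limma), and of -1.41 without KO scWAT C695 (adjusted p = 0.0431). In epWAT it was at 11.4, 8.96 and 8.11 FPKM in KO and at 12.5, 14.8 and 14.3 FPKM in WT (adjusted p = 0.0751, limma), with a log2 difference of -0.64 without KO epWAT C7 (adjusted p = 0.0254). Its KO libraries lay below its WT libraries in both pads. Myc, which drives cell growth, was at 9.80, 19.7 and 9.84 FPKM in KO scWAT and at 5.36, 4.20 and 5.48 FPKM in WT scWAT (log2 difference 1.16 ± 0.27, adjusted p = 0.124, limma, and 0.0854 without C695). The 5 tested target genes thus did not share a direction in scWAT, with 1 value above 0 and 4 below.

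Ctnnb1, which encodes beta-catenin, ran from 59.9 to 66.2 FPKM in WT epWAT, 49.8 to 56.7 in KO epWAT, 58.3 to 63.1 in WT scWAT and 48.6 to 55.1 in KO scWAT. The genotypes did not overlap in either pad, with log2 differences of -0.24 ± 0.080 in epWAT (adjusted p = 0.116, limma) and -0.23 ± 0.074 in scWAT (adjusted p = 0.207, limma). Under upper-quartile scaling the epWAT difference was -0.07. The co-receptor Lrp6 and the Wnt carrier Wls had overlapping groups between genotypes in scWAT, at log2 differences of -0.13 and -0.11. In epWAT both were at -0.12, and both became 0.04 under upper-quartile scaling. There the groups of Lrp6 overlapped, and those of Wls did not, at 12.6 to 13.7 FPKM in KO and 13.8 to 15.3 FPKM in WT.

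**Figure D4:**
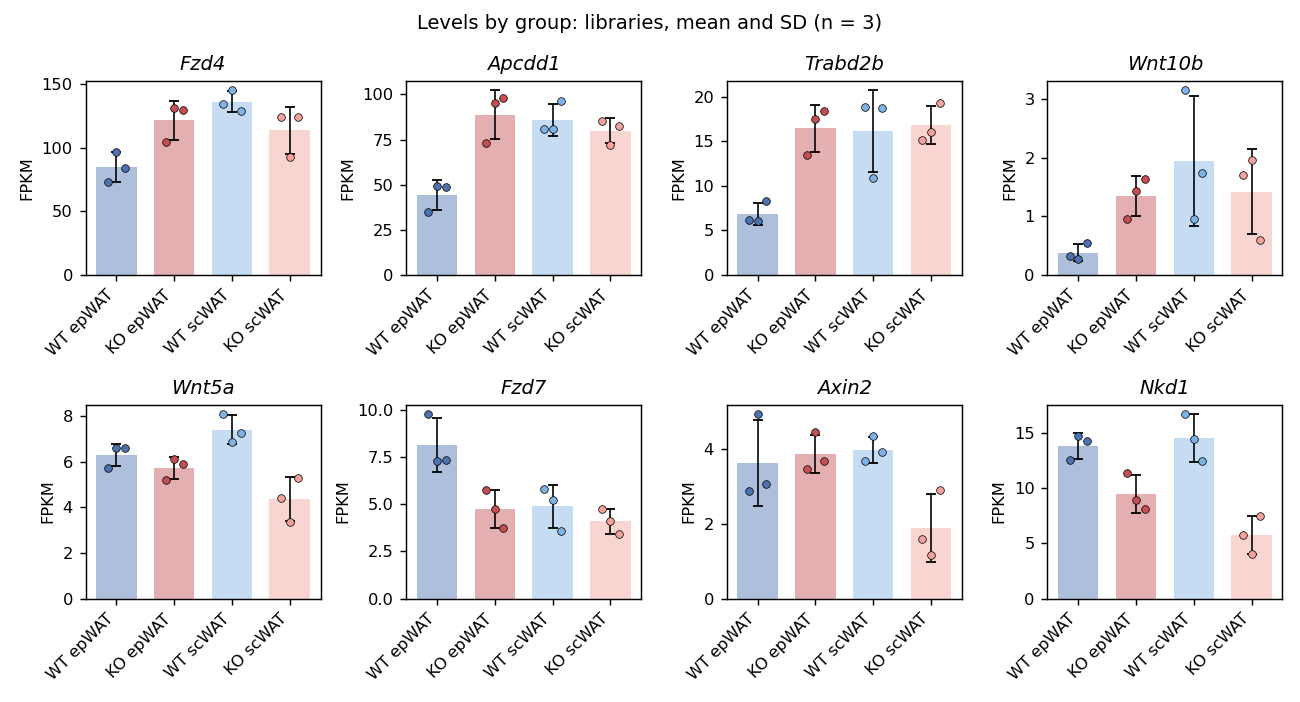
FPKM of 4 members and 4 further pathway genes in each group, with 1 point per library, bars at the mean and error bars at the SD (n = 3). Fzd4, Apcdd1, Trabd2b and Wnt10b have their lowest mean in WT epWAT, while Wnt5a, Axin2 and Nkd1 have theirs in KO scWAT.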

How the data were processed

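RNA was extracted with Trizol and sequenced after a standard Illumina library preparation, per the labels' protocols. The authors deposited 1 FPKM value per Ensembl gene and library. No header names the unit, which was read from the values. For the aligner, the counter and strandedness, nothing is given in the sources used here. The build mm9 is named in the submitters' processing notes. FPKM times the exon length in GENCODE M21 (GRCm38) and 1 depth per library gave whole reads, within 0.01, in all 12 libraries for 92.4% of the 32553 matched genes, and 69 identifiers did not match. Exon lengths thus follow a GRCm38-type annotation, and all coordinates are GRCm38. WT libraries had 17574947 to 18263864 reads for epWAT and 16192574 to 18311564 for scWAT, KO libraries 15011093 to 17294388 for epWAT and 16828570 to 17470262 for scWAT. These depths limit the precision of the low members.

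The test was limma-trend on log2(FPKM + 1) over genes that reached 1 FPKM in 3 or more of the libraries fitted, with Benjamini-Hochberg adjustment over all genes tested and a threshold of 0.05. Differences on that scale understate changes of low genes. Groups came from the sample titles, and replicates are named by mouse. Comparisons of KO with WT used the 6 libraries of a pad, comparisons of pads the 6 libraries of a genotype, and the interaction all 12. Comparisons that share libraries are not independent. The members and the gene lists were chosen with earlier results of these data known, and 1 family member was left out by the rule that chose them. All members were named, with values per library, or their range, for those with at least 1 FPKM in at least 3 libraries. Pathway genes were named if they passed a test, together with Ctnnb1, Axin2, Lrp6, Tcf7l2 and Wls. Nkd1, Myc, Ccn5 and Ccnd1 are exceptions, chosen after their values were seen.

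Mouse codes occur in both pads and were read as animals. The deviations of a mouse's 2 pads from their group means correlated at -0.03 (C7), 0.17 (C34) and 0.11 (C695) in KO mice and at 0.36 (C75), 0.32 (C85) and 0.26 (C99) in WT mice. The highest correlation of a mouse's epWAT with the scWAT of another mouse of its genotype was 0.06 (C7), -0.04 (C34) and 0.06 (C695) in KO mice. In WT mice it was -0.09 (C75), -0.12 (C85) and -0.06 (C99). For C7 the own pad thus did not correlate best. The mouse was also used as a block. Alternatives were no filter, a pseudocount of 0.1, upper-quartile scaling, quantile normalization, a spread shared over 12 libraries, robust moderation, limma-voom on recovered reads, the block, and leaving out libraries. Recovered reads were not whole for Fzd6, Fzd8, Wnt7b, Wnt8b and Wnt10b. The fits were tested on simulated data. Python 3.11.15 with numpy 2.4.6, pandas 2.3.3 and matplotlib 3.10.9 and R 4.3.3 with statmod 1.5.0 and limma 3.58.1 were used.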

Additional observations from a re-analysis of the deposited data

Results flagged for a closer look

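Fzd4 was flagged because every KO library lay above every WT library in epWAT, at a log2 difference of 0.52, and below every WT library in scWAT, at -0.27. Without KO scWAT C34 the scWAT value was -0.13. The flag itself rests on this separation and not on a test; the interaction test of the same gene had an adjusted p of 0.0793 (limma, n = 3 in each group).

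Apcdd1 was flagged because its KO effect differed between the pads by the interaction test, at -1.10 on the log2 scale (adjusted p = 0.0455, limma). The call was lost with the mouse as a block (adjusted p = 0.0648), under limma-voom (0.0506), with no filter (0.0973) and without any single library other than KO epWAT C7 (0.0529 to 0.121). The adipocyte, macrophage, lymphocyte and skeletal muscle marker sums did not overlap between the genotypes in epWAT, and their part in either result was not tested.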

How the results depend on the processing

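The numbers of genes called moved widely. For KO against WT in epWAT, 0 genes became 28 under upper-quartile scaling, 90 under quantile normalization, 1820 with a spread shared over 12 libraries, 1856 with the mouse added to that spread as a random effect (replicate block), and 0 to 1781 on leaving out a library, the highest without KO epWAT C7. In scWAT, 40 became 11 with no filter, 62 and 22 under the 2 scalings, 270 with the shared spread, 280 with the block, and 0 to 142 without a library, the highest without KO scWAT C695. For the interaction, 139 became 23 with no filter, 0 with the mouse as a block, 1477 without both KO epWAT C7 and KO scWAT C695, and 0 to 928 without a single library. Between WT pads, 2852 became 1736 with the shared spread and 1272 to 2307 without a library. Between KO pads, 90 became 44 with no filter, 660 with the shared spread, 12 with the block, 6 without both libraries, and 7 to 36 without a single library.

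The members called followed. In epWAT they went from 0 to 2 with the shared spread, with the block and without C7, and to between 0 and 2 over left-out libraries. In scWAT they went from 0 to 1 with the shared spread and the block (Wnt5a). For the interaction they went from 0 to 2 without both libraries and 0 to 1 over single ones. Between WT pads, 3 became 1 with no filter and 1 to 3 over left-out libraries. Between KO pads, 1 became 2 with the shared spread and limma-voom, Wnt2b in place of Fzd1 under both scalings, 0 with the block and without both libraries, and 0 in each left-out fit. The cause of these moves was not tested. No called member changed sign under any alternative run. With 3 libraries a group, differences of the low members were near the limit of the depth.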
